A study of Mus musculus with 8 samples.

Results

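Cyp2b9, Cyp2b10 and Cyp2b13 are cytochrome P450 genes of the Cyp2b subfamily, and their transcripts were followed in mouse liver under an alcohol diet. The subfamily was chosen by name, for 5 genes listed beforehand, because Cyp2b9 and Cyp2b13 had shown a very large alcohol rise in these same libraries. Of the 5 genes, 3 had a row among the 19267 genes of the count table, and the expression of Cyp2b19 and Cyp2b23 was not analysed here. Since the diet values had selected the genes, the change from control diet to alcohol is given for them as a description without a test, while the genotype comparisons are tested.

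The study asked how loss of the transcription factor gene Elf4 from intestinal epithelium affects the liver under alcohol. All mice were male and C57BL/6, were 6 weeks old at the start and 9 weeks old at sampling, and were pair-fed a Lieber-DeCarli liquid diet for 21 days, either with alcohol at 5% w/v (the EtOH groups) or with maltose dextrin of equal calories in its place (the Control groups). Elf4-/- mice came from crossing loxP-flanked Elf4 mice with mice that express Cre recombinase from the villin promoter, which is active in intestinal epithelium and not in hepatocytes, and the WT mice carried Cre too. Whole liver was sequenced in 8 libraries, 2 in each of the groups WT-EtOH, WT-Control, Elf4-/- EtOH and Elf4-/- Control. Whether the 2 libraries of a group came from separate mice is not stated, so p-values measure the spread between these libraries only.

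CYP2B enzymes are membrane-bound monooxygenases of the endoplasmic reticulum that oxidize drugs, steroids and fatty acids with electrons supplied by the reductase POR. In mouse liver, Cyp2b10 is the classical phenobarbital-inducible gene, switched on by the nuclear receptor CAR (Nr1i3) together with its partner RXR. Cyp2b9 and Cyp2b13 are known for higher expression in female than in male liver, a pattern set by the timing of growth hormone release, and all mice here were male.

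The genes lie in 1 cluster on chromosome 7 (GENCODE M21, build GRCm38), are all annotated as protein coding, and read in the same direction. Cyp2b10 spans chr7:25897620-25926624, Cyp2b13 spans chr7:26061497-26096197 and Cyp2b9 spans chr7:26173411-26210661, all on the plus strand. Cyp2b23 (chr7:26665227-26686437, minus strand) and Cyp2b19 (chr7:26757142-26772630, plus strand) lie farther along. The longest coding transcript of each of the 3 measured genes has 9 exons and 491 codons. Cyp2b9 and Cyp2b13 were the closest pair in coding sequence, with 92.7% identity, against 87.8% for Cyp2b9 and Cyp2b10 and 88.8% for Cyp2b13 and Cyp2b10.

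The likeness of Cyp2b9 and Cyp2b13 was larger still in front of the genes. The 3 windows below run up to the start site (RefSeq promoters, build GRCm38.p6, plus strand, 5′ to 3′) and are shown because Cyp2b9 and Cyp2b13 share nearly all of theirs although their transcript levels differed, and because Cyp2b10 differs from both. Windows of 250 bases were compared, and those of Cyp2b9 and Cyp2b13 were identical at 248 of 250 positions. The differences, counted from 1 at the 5′ end with the Cyp2b9 base first, are T48C and C104T, which lie at -203 and -147 from the start site. Single capitals mark these positions, and the run of 6 capitals marks AGGTCA, the half-site letters read by many nuclear receptors. Capitals in the Cyp2b10 window mark TTGCATAA, letters of the kind bound by C/EBP factors. The last 38 bases of the Cyp2b10 window are left out because GENCODE counts them as transcribed.
Cyp2b9, chr7:26173159-26173408: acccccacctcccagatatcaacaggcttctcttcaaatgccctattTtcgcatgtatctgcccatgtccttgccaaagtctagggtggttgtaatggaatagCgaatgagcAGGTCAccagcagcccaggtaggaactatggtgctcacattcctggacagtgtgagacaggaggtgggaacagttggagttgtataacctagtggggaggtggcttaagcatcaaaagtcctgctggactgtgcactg
Cyp2b13, chr7:26061245-26061494: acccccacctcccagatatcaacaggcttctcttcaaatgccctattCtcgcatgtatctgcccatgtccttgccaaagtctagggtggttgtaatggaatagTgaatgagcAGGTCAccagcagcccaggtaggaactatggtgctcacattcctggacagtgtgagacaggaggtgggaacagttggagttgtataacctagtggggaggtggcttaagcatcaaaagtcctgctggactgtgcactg
Cyp2b10, chr7:25897408-25897619: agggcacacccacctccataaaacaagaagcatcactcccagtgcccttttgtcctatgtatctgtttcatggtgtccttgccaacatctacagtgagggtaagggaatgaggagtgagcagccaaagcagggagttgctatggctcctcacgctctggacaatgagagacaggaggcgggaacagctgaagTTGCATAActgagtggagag

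The Cyp2b9 and Cyp2b10 windows were identical in 70.0% of aligned positions, gaps included. Motifs were searched on both strands of all 5 Cyp2b windows. AGGTCA was found at -138 in both Cyp2b9 and Cyp2b13 and also in the windows of Cyp2b19 and Cyp2b23, but not in that of Cyp2b10, and 14.0% of 32851 promoter windows of the same length hold it. TTGCATAA was found at -58 in Cyp2b10 and also in Cyp2b19 and Cyp2b23, but not in Cyp2b9 or Cyp2b13, and 0.694% of all windows hold it. CATAAAA, held by 3.77% of all windows, split the genes in the same way. TTCNNNGAA, the letters read by STAT5 (7.02% of all windows), and TATAAA (12.4%) were in none of the 5 windows. TTGCATAA and CATAAAA share letters but did not overlap here, and these matches describe letters and not binding.

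The table held 6171051 to 9157362 counts per library, and 10.8% to 33.7% of them came from mitochondrial genes. In WT that share was 33.7% and 23.4% on control diet against 12.5% and 10.8% on alcohol, while in Elf4-/- it was 18.7% and 18.5% against 22.1% and 18.3%, and its part in the diet changes below was not tested. Values are given as CPM, read counts relative to the library size after TMM scaling. The floor of 3 counts, taken as the limit that a count of 0 allows, was 0.306 to 0.559 CPM per library. The libraries of Elf4-/- EtOH stood apart from each other more than those of the other alcohol group, with 1074 of 13993 tested genes at least 1 log2 unit higher in replicate 1 than in replicate 2, against 331 in WT-EtOH. Elf4 itself had 27 and 36 counts on alcohol and 6 and 11 on control diet in WT, and 14 and 34 against 12 and 6 in Elf4-/-, which checks the genotype labels little because the deletion was intestinal. All 6 hepatocyte markers (Alb, Apoa1, Ttr, Serpina1c, Fgb, Cps1) were present, summing to 54854 to 76758 CPM in the 4 control libraries and 32795 to 54556 CPM in the 4 EtOH libraries.

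Cyp2b9 was nearly silent on control diet and among the abundant liver transcripts on alcohol. In WT it had 1273 and 2906 counts on alcohol against 5 and 5 on control diet. In Elf4-/- it had 2431 and 1421 counts on alcohol against 13 and 3 on control diet. In both genotypes every EtOH library lay far above every control library, which is description only because Cyp2b9 was chosen for this rise. Ordered by count within a library, Cyp2b9 stood between the 13057th and the 14869th gene on control diet and between the 291st and the 732nd on alcohol. Mean expression in WT was 229 ± 95.6 CPM on alcohol against 0.926 ± 0.0087 CPM on control diet (SD, n = 2). In Elf4-/- it was 288 ± 141 CPM against 0.890 ± 0.626 CPM (SD, n = 2). The ratio of alcohol to control, with the counts of each group pooled, was 255 in WT (95% counting interval 138 to 531) and 287 in Elf4-/- (176 to 503). Here and below, intervals and floors cover counting error only, since reads copied by PCR from 1 molecule cannot be recognised.

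Cyp2b13, the near copy of Cyp2b9, followed the same order at a lower level. Its counts in WT were 97 and 494 on alcohol against 2 and 0 on control diet, and in Elf4-/- they were 611 and 140 against 1 and 1. The 4 control libraries were at or under the floor, and the EtOH libraries of a group differed by 4.10-fold in WT and 5.24-fold in Elf4-/-. Means on alcohol were 31.3 ± 26.9 CPM in WT-EtOH and 58.0 ± 55.7 CPM in Elf4-/- EtOH (SD, n = 2), so the spread was nearly as large as the mean. The pooled ratio to control diet was 180 in WT (49.6 to 1490) and 448 in Elf4-/- (123 to 3702), each resting on 2 control counts. It was 56.7 in WT without WT-Control replicate 1 and 153 in Elf4-/- without Elf4-/- EtOH replicate 1.

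Cyp2b10, the phenobarbital-inducible member, behaved differently between single libraries. In WT it had 113 and 120 counts on alcohol against 0 and 0 on control diet. In Elf4-/- it had 1633 and 13 counts on alcohol against 1 and 2 on control diet. The WT-EtOH libraries were close to each other, while those of Elf4-/- EtOH, at 260 and 1.72 CPM, fell on either side of them and differed by 151-fold. Expression in WT-EtOH was 13.3 ± 1.46 CPM (SD, n = 2), at least 23.9-fold higher than in WT-Control, where the bound is set by 3 counts per library. In Elf4-/- the pooled ratio was 654 (223 to 3174) against 3 control counts, and 9.46 without Elf4-/- EtOH replicate 1.

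**Figure D1:**
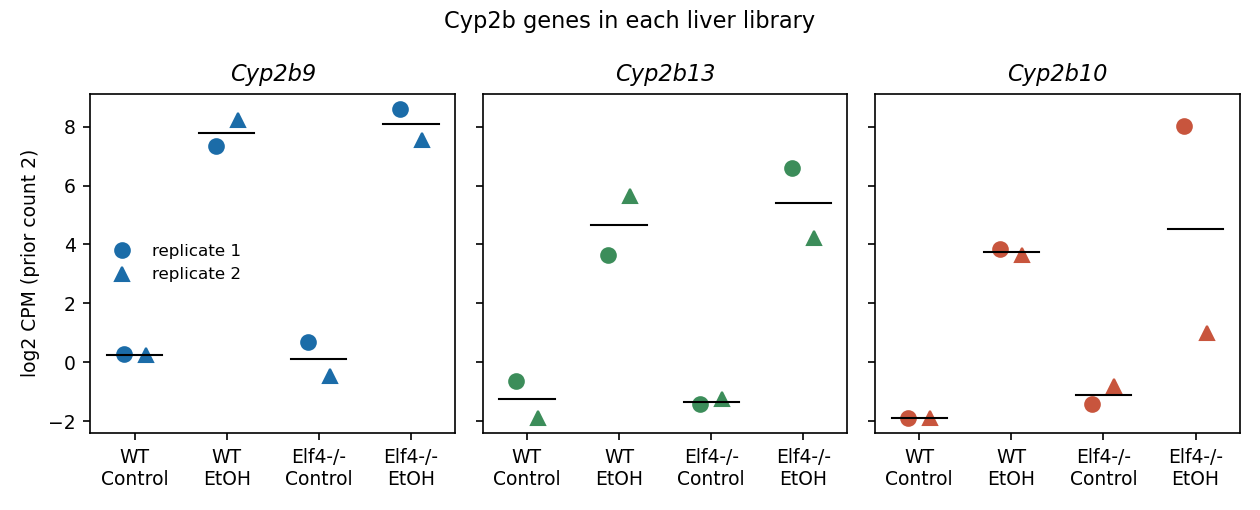
log2 CPM (prior count 2) of each Cyp2b gene in the 8 libraries, by group, with circles for replicate 1, triangles for replicate 2 and a line for the mean. Libraries with 0 counts sit at -1.88, which is the prior count alone. The EtOH libraries lie above the control libraries for all 3 genes, where Cyp2b9 and Cyp2b13 had been chosen for that rise. Cyp2b10 splits in Elf4-/- EtOH, with replicate 1 at 8.03 and replicate 2 below WT-EtOH.

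Per length of exon, Cyp2b9 was the most abundant member in each EtOH library. On this scale Cyp2b9 stood at 85.8 and 158 CPM per kb in WT-EtOH and at 207 and 100 CPM per kb in Elf4-/- EtOH, replicates 1 and 2 in that order. Cyp2b13 stood at 6.54 and 26.8 CPM per kb in WT-EtOH and at 51.9 and 9.91 CPM per kb in Elf4-/- EtOH. Cyp2b10 stood at 6.77 and 5.79 CPM per kb in WT-EtOH and at 123 and 0.817 CPM per kb in Elf4-/- EtOH. The lower places were therefore not fixed, and Cyp2b10 was above Cyp2b13 in Elf4-/- EtOH replicate 1, below it in 2 libraries, and within counting error of it in WT-EtOH replicate 1, where the ratio of Cyp2b13 to Cyp2b10 was 0.967 (95% counting interval 0.729 to 1.28).

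Over all EtOH libraries together, the proportion between the near copies varied less than that to Cyp2b10. Within WT-EtOH it did not, and the wider range of the ratio to Cyp2b10 came from the Elf4-/- EtOH libraries. Cyp2b9 exceeded Cyp2b13 per kb by 13.1-fold (95% counting interval 10.7 to 16.3) and 5.88-fold (5.34 to 6.48) in WT-EtOH, and by 3.98-fold (3.64 to 4.35) and 10.1-fold (8.52 to 12.2) in Elf4-/- EtOH. Cyp2b9 exceeded Cyp2b10 by 12.7-fold (10.5 to 15.5) and 27.3-fold (22.7 to 33.0) in WT-EtOH, and by 1.68-fold (1.57 to 1.79) and 123-fold (71.7 to 232) in Elf4-/- EtOH. In both genotypes the library with more Cyp2b9 had the lower ratio of Cyp2b9 to Cyp2b13. Of the counts of the 3 genes together, Cyp2b9 took 85.8% (84.0 to 87.6, exact binomial) and 82.6% (81.3 to 83.8) in WT-EtOH, and 52.0% (50.6 to 53.4) and 90.3% (88.7 to 91.7) in Elf4-/- EtOH. The family as a whole made up 0.0212% and 0.0426% of all counts in WT-EtOH and 0.0710% and 0.0213% in Elf4-/- EtOH.

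**Figure D2:**
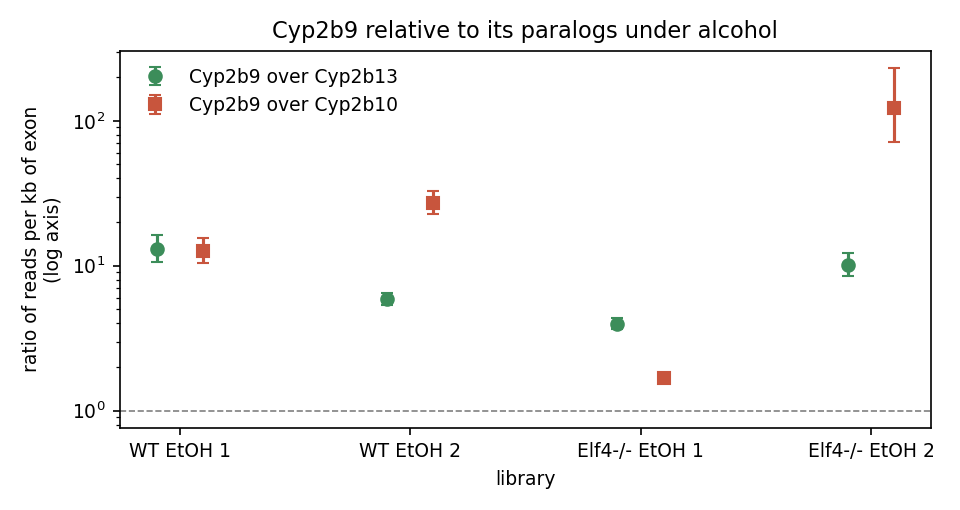
Ratio of Cyp2b9 to Cyp2b13 (circles) and to Cyp2b10 (squares) in reads per kb of exon, on a log axis, for each EtOH library, with 95% counting intervals. The ratio to Cyp2b13 stays between 3.98 and 13.1, while the ratio to Cyp2b10 runs from 1.68 to 123.

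Close copies can share reads, and how reads with several possible origins were counted is not given in the sources used here. The longest stretch of identical bases between transcripts was 113 for Cyp2b9 and Cyp2b13, 86 for Cyp2b13 and Cyp2b10, and 55 for Cyp2b9 and Cyp2b10. Of all stretches of 150 bases, 0% of those of Cyp2b9 and of Cyp2b10 and 5.04% of those of Cyp2b13 occurred in a transcript of another gene, which for Cyp2b13 was the unprocessed pseudogene Gm45225. Reads that fall wholly within an identical stretch cannot be assigned to 1 gene, so the levels of the copies are uncertain to that extent.

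The genotype comparison under alcohol asked whether liver levels on the alcohol diet differed between Elf4-/- and WT. Whether the change with diet differed is the interaction, given further below. None of the 3 measured Cyp2b genes passed the threshold, an adjusted p under 0.05 (quasi-likelihood test of edgeR, adjusted by Benjamini-Hochberg over the 13993 genes tested), which 0.143% of all tested genes passed. At an unadjusted p under 0.05, 1 of the 3 passed, against 1470 of all 13993 tested genes, and with DESeq2 0 of 3. For Cyp2b9 the log2 fold change of Elf4-/- EtOH over WT-EtOH was 0.33 ± 0.39 (SE, edgeR adjusted p = 0.827), and the counts of the groups overlapped. For Cyp2b13 it was 0.87 ± 0.71 (SE, edgeR adjusted p = 0.733), again with overlap. For Cyp2b10 it was 3.30 ± 1.35 (SE, edgeR adjusted p = 0.445, unadjusted p = 0.0372), with the WT-EtOH libraries lying between those of Elf4-/- EtOH.

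All 3 values turned on single libraries. Without Elf4-/- EtOH replicate 1, Cyp2b10 was lower in Elf4-/- EtOH by a log2 fold change of -2.93 (edgeR adjusted p = 0.0426), and without replicate 2 it was higher by 4.29 (edgeR adjusted p = 4.43e-05). In each of these fits Elf4-/- EtOH holds 1 library, which is assumed to vary like the other groups, and the sign follows which library of the split was kept, so no direction is read from them. Without Elf4-/- EtOH replicate 1 the log2 fold change was -0.28 for Cyp2b9 and -0.76 for Cyp2b13. Without WT-EtOH replicate 2 it was 0.83 for Cyp2b9 and 2.23 for Cyp2b13. With all 8 libraries kept, the DESeq2 adjusted p was 0.998 for Cyp2b9 and 0.999 for Cyp2b13.

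On control diet the genotypes could be compared for Cyp2b9 only, since Cyp2b10 and Cyp2b13 were at or under the floor in both groups. The log2 fold change of Cyp2b9 was 0.04 ± 0.78 (SE, edgeR adjusted p = 0.994), and 0.0143% of all tested genes passed in this comparison. With Elf4-/- Control replicate 1 left out it was -1.02, and with replicate 2 left out 0.52, so at 3 to 13 counts per library a difference of this size was not detectable. The interaction, which is the diet change in Elf4-/- minus that in WT, was 0.30 ± 0.90 for Cyp2b9 (SE, edgeR adjusted p = 0.935). Over all genes the interaction was called for 0 (0%) by edgeR, with 1411 at an unadjusted p under 0.05, and for 111 by DESeq2. The interaction of Cyp2b9 was -0.33 without Elf4-/- EtOH replicate 1, 1.35 without Elf4-/- Control replicate 1, and -0.21 when libraries were scaled by their totals.

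The gap between the Elf4-/- EtOH libraries was shared by other genes that CAR is known to switch on, and not by these alone. In log2 CPM, replicate 1 exceeded replicate 2 by 7.03 for Cyp2b10, 2.37 for Cyp2b13 and 1.04 for Cyp2b9, and only 3, 49 and 390 of 9398 genes averaging 50 counts or more had a larger gap in that direction. Of 30 CAR targets, 28 were higher in replicate 1, with a median gap of 1.13, against 6942 of 13993 tested genes with a median of -0.01. In WT-EtOH the gaps were -0.88 for Cyp2b9 and -2.01 for Cyp2b13, near the extreme of the other direction, since 9311 and 9389 of the 9398 genes had a value above theirs. The gap was 0.22 for Cyp2b10 in WT-EtOH, where 2067 genes had a value above it. In that group 10 of 30 CAR targets were higher in replicate 1, with a median of -0.22. Over all tested genes of WT-EtOH, 6853 of 13993 were higher in replicate 1, with a median of -0.01. The female-predominant genes were higher in replicate 1 for 12 of 14 in Elf4-/- EtOH and 4 of 14 in WT-EtOH, the same direction as Cyp2b9 and Cyp2b13 in each group. Their median gaps were 1.28 and -0.73. Tested neighbours in the gene cluster were higher for 11 of 12 and 4 of 12, with medians of 0.38 and -0.31. Male-predominant genes went the other way, higher for 5 of 21 and 19 of 21, with medians of -1.21 and 0.50. What set the libraries of a group apart was not tested.

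**Figure D3:**
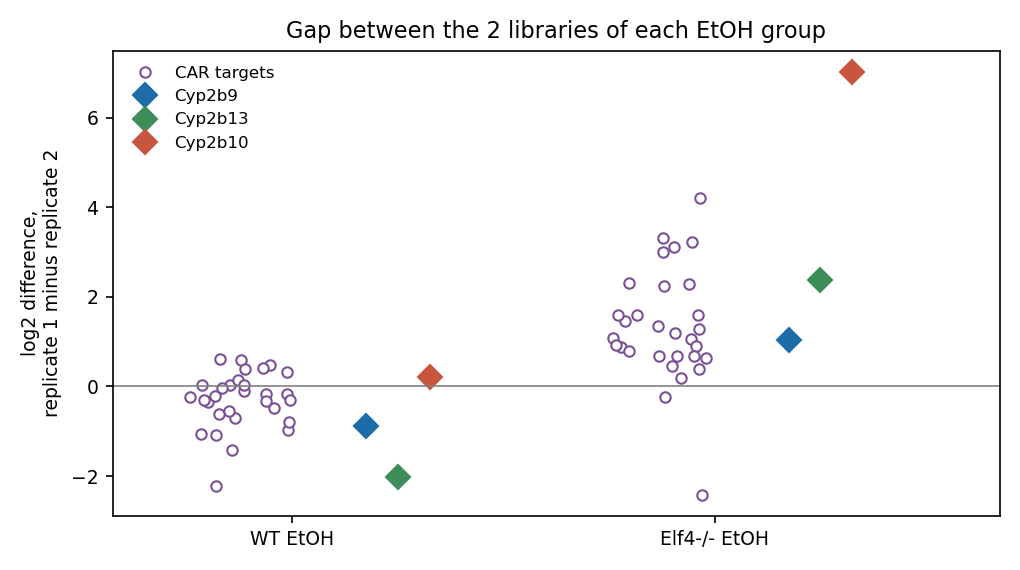
log2 difference of replicate 1 minus replicate 2 within each EtOH group for the 30 CAR targets (open circles, spread sideways for sight, as log2 ratio of CPM) and the 3 Cyp2b genes (diamonds, as log2 CPM with a prior count of 2). In Elf4-/- EtOH 28 of the 30 CAR targets lie above 0 and Cyp2b10 is at 7.03. In WT-EtOH 10 of 30 lie above 0, and Cyp2b9 and Cyp2b13 lie below it at -0.88 and -2.01.

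Of 14 regulators and redox partners of the family, 1 rose and 2 fell with alcohol in WT, where 10.8% of all tested genes rose and 10.8% fell, and 0 were called in Elf4-/-, where 1.71% rose and 1.18% fell. In Elf4-/-, 2 of the 14 had an unadjusted p under 0.05, against 2966 of all 13993, and DESeq2 called 1 lower. Without Elf4-/- EtOH replicate 2, edgeR called 1 higher and 3 lower in Elf4-/-, and without any 1 of the 4 WT libraries it called 0 higher in WT. The falls in WT numbered 0 without WT-Control replicate 1 or WT-EtOH replicate 2, and 4 without either Elf4-/- EtOH library. With libraries scaled by their totals, 3 rose and 1 fell in WT. The median log2 fold change of the list was -0.25 in WT and -0.21 in Elf4-/-, against 0.01 over all tested genes in both.

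Por, the electron donor of microsomal P450 enzymes, rose from 126 ± 20.0 to 422 ± 7.33 CPM in WT (SD, n = 2), or 1.74 ± 0.43 on the log2 scale (SE, edgeR adjusted p = 0.0196). In Elf4-/- its log2 fold change was 0.91 ± 0.42 (SE, edgeR adjusted p = 0.250). Nr0b2, which encodes the repressor SHP, fell in WT from 97.8 ± 19.1 to 36.0 ± 9.22 CPM (SD, n = 2; edgeR adjusted p = 0.0107), and Ppargc1a, which encodes the coactivator PGC-1α, fell from 12.2 ± 0.671 to 4.89 ± 2.02 CPM (SD, n = 2; edgeR adjusted p = 0.0304). In Elf4-/- their log2 fold changes were -1.08 ± 0.31 for Nr0b2 and -0.08 ± 0.35 for Ppargc1a (SE, edgeR adjusted p = 0.0842 and 0.915). Nr1i3, which encodes CAR, stood at 677 ± 155 CPM on alcohol against 516 ± 97.6 CPM on control diet in WT, and at 704 ± 63.3 CPM against 815 ± 207 CPM in Elf4-/- (SD, n = 2). Its log2 fold change was 0.39 ± 0.28 in WT and -0.21 ± 0.28 in Elf4-/- (SE, edgeR adjusted p = 0.346 and 0.714).

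The other 10 regulators did not pass in either genotype. In WT they had log2 fold changes from -0.69 for Cebpa (C/EBPα) to 0.45 for Ppara (PPARα), and in Elf4-/- from -1.04 for Egfr to 0.47 for Foxa2. In WT the xenobiotic receptor PXR gene Nr1i2 stood at -0.32, the RXR gene Rxra at 0.15 and the glucocorticoid receptor gene Nr3c1 at -0.18. The hepatocyte factor genes Hnf4a and Foxa2 stood at -0.48 and -0.08, the growth hormone signal transducer Stat5b at -0.66, the cytochrome b5 gene Cyb5a at -0.22, and the receptor Egfr, through which phenobarbital acts on CAR, at -0.29.

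Of 30 CAR targets other than Cyp2b genes, all of which were tested, 18 rose and 1 fell with alcohol in WT, and 15 rose and 0 fell in Elf4-/-, with median log2 fold changes of 1.96 and 1.95 (edgeR quasi-likelihood test). Of all tested genes, 10.8% rose and 10.8% fell in WT, and 1.71% rose and 1.18% fell in Elf4-/-. The median over all tested genes was 0.01 in both. The lists overlap, so some rises are counted in more than 1 list. Por is also among the regulators, Cyp2a4 among the female-predominant genes and the cluster neighbours, and Cyp2a5 among the neighbours. Gsta2 and Gstm3, glutathione transferases that detoxify electrophiles, rose in WT by 6.13 ± 0.73 and 5.73 ± 1.01 on the log2 scale (SE, edgeR adjusted p = 0.00168 and 0.00535). The efflux transporter Abcc4 rose by 5.64 ± 0.89 (SE, edgeR adjusted p = 0.00365). The P450 genes Cyp2c29 and Cyp3a11 rose by 5.03 ± 0.67 and 2.79 ± 0.33 in WT and by 3.95 ± 0.63 and 2.51 ± 0.33 in Elf4-/- (SE, all called). Slco1a4, a bile acid and drug uptake carrier and the only call against the list, named after its values were seen, fell in WT from 72.6 ± 14.1 to 18.5 ± 3.69 CPM (SD, n = 2) and stood at 150 ± 107 CPM on alcohol against 109 ± 55.0 CPM on control diet in Elf4-/-. The count of rises was 10 in WT without WT-Control replicate 1. In Elf4-/- it was 0 without either Elf4-/- Control library, 1 when only the 4 Elf4-/- libraries were used, and 24 without Elf4-/- EtOH replicate 2.

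Among genes known to differ between female and male liver, calls in these male mice went up for the female-predominant list and down for the male-predominant one, though not for every gene. Of 23 female-predominant genes 17 had a row and 14 could be tested. The untested genes with a row had at most 7 counts in any library, on alcohol too. Of the 14 tested genes, 8 rose in WT and 5 in Elf4-/-, and 0 fell (edgeR quasi-likelihood test). By sign alone, 11 of the 14 were higher on alcohol in WT and 13 in Elf4-/-. Their median log2 fold change was 2.13 in WT and 2.52 in Elf4-/-. Of 23 male-predominant genes 21 could be tested, of which 16 fell in WT and 12 in Elf4-/-, and 0 rose, with medians of -2.67 and -2.29. Among all tested genes the shares were 10.8% higher and 10.8% lower in WT, and 1.71% higher and 1.18% lower in Elf4-/-, with a median of 0.01 in both. Across the libraries left out in turn, the female-predominant genes that rose numbered 4 (without WT-EtOH replicate 2) to 9 (without either Elf4-/- EtOH library) in WT and 1 (without Elf4-/- Control replicate 2) to 11 (without Elf4-/- EtOH replicate 2) in Elf4-/-. The male-predominant genes that fell numbered 7 to 19 and 2 to 14, at the same libraries. With DESeq2, 1 female-predominant gene fell in Elf4-/-.

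Among the female-predominant genes, Acot3, a peroxisomal acyl-CoA thioesterase, had 1047 and 2560 counts on alcohol against 2 and 3 on control diet in WT, and 612 and 744 against 41 and 26 in Elf4-/-. Cux2, a transcription factor of female liver, had 97 and 362 counts on alcohol against 7 and 3 on control diet in WT, and 314 and 18 against 15 and 6 in Elf4-/-. Both were called in WT, and Cux2, which split in Elf4-/- EtOH as Cyp2b10 did, was not called in Elf4-/- (edgeR adjusted p = 0.0783). Slc22a26, an organic anion transporter gene, rose from 0.558 ± 0.529 to 14.3 ± 10.5 CPM in WT and from 1.13 ± 0.297 to 36.0 ± 11.5 CPM in Elf4-/- (SD, n = 2). Among the male-predominant genes, the major urinary protein gene Mup7 fell from 2863 ± 1866 to 18.7 ± 16.5 CPM in WT, and the steroid dehydrogenase gene Hsd3b5 from 147 ± 71.2 to 1.19 ± 0.101 CPM (SD, n = 2). Selenbp2, a selenium-binding protein gene, fell from 1027 ± 110 to 7.99 ± 7.12 CPM, and the serpin gene Serpina1e from 4026 ± 70.3 to 93.8 ± 30.8 CPM (SD, n = 2). Selenbp2, Serpina1e and the Mup genes have close copies with which reads may have been shared.

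**Figure D4:**
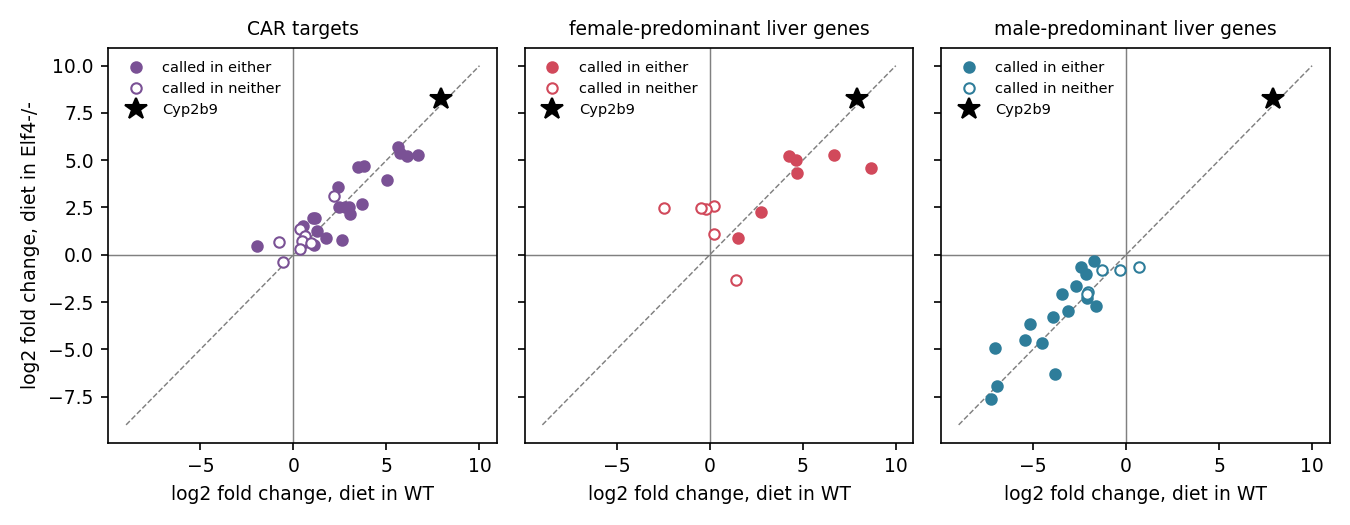
Fitted log2 fold change of EtOH over control diet in WT (x axis) and Elf4-/- (y axis) for the tested genes of 3 lists, filled where called in either genotype, with Cyp2b9 as a star and the line of equal change dashed. The contrasts share no library. Of the tested female-predominant genes, 1 is not drawn. CAR targets and female-predominant genes lie mostly in the upper right, male-predominant genes in the lower left.

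Along the cluster, the neighbours that moved with alcohol included 3 other P450 genes. Of 12 tested genes between the outermost Cyp2b genes or within 250 kb of them, 5 rose in WT and 3 in Elf4-/-, and 0 fell, with median log2 fold changes of 0.64 and 0.14 (edgeR quasi-likelihood test). Over all tested genes, 10.8% rose and 10.8% fell in WT, and 1.71% rose and 1.18% fell in Elf4-/-. Cyp2a4, a female-predominant steroid hydroxylase and CAR target, rose in WT by 6.67 ± 1.05 and in Elf4-/- by 5.26 ± 0.96 on the log2 scale (SE, edgeR adjusted p = 0.00359 and 0.0273). In WT its counts were 1549 and 5174 on alcohol against 35 and 3 on control diet, and in Elf4-/- they were 1431 and 1107 against 83 and 5, without overlap between diets. Cyp2a5, a coumarin hydroxylase, rose by 3.67 ± 0.42 in WT and 2.69 ± 0.41 in Elf4-/- (SE, edgeR adjusted p = 0.0015 and 0.0162). Cyp2a22 rose by 3.98 ± 0.96 in WT and 6.15 ± 0.99 in Elf4-/- (SE, edgeR adjusted p = 0.0178 and 0.0183). Whether Cyp2a4 and Cyp2a5 share reads was not examined. On alcohol Cyp2a5 had 37968 and 65534 counts in WT and 33770 and 19271 in Elf4-/-. Any of its reads counted for Cyp2a4 would raise the values of Cyp2a4.

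Of the genes that passed in WT alone, the receptor kinase gene Axl rose by 1.41 ± 0.23 (SE, edgeR adjusted p = 0.00377) and stood at 0.34 ± 0.22 in Elf4-/- (SE, edgeR adjusted p = 0.404). The antisense gene Gm42375, whose start on the minus strand overlaps the start of Cyp2a4, had 14 and 52 counts on alcohol in WT. On control diet in WT it had 0 and 0 counts, so it was at least 6.36-fold higher on alcohol. With the strand setting unknown, its reads cannot be told apart from those of Cyp2a4 in the overlap. The other genes at the Cyp2b10 end of the cluster, from Bckdha to Hnrnpul1, were not called in either genotype. The rises numbered 3 in WT without WT-Control replicate 1 or WT-EtOH replicate 2, and 0 in Elf4-/- without either Elf4-/- Control library. Cyp2e1, the microsomal ethanol-oxidizing P450 encoded elsewhere, rose in WT by 1.07 ± 0.29 (SE, edgeR adjusted p = 0.0287) and stood at 0.76 ± 0.29 in Elf4-/- (SE, edgeR adjusted p = 0.175).

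**Figure D5:**
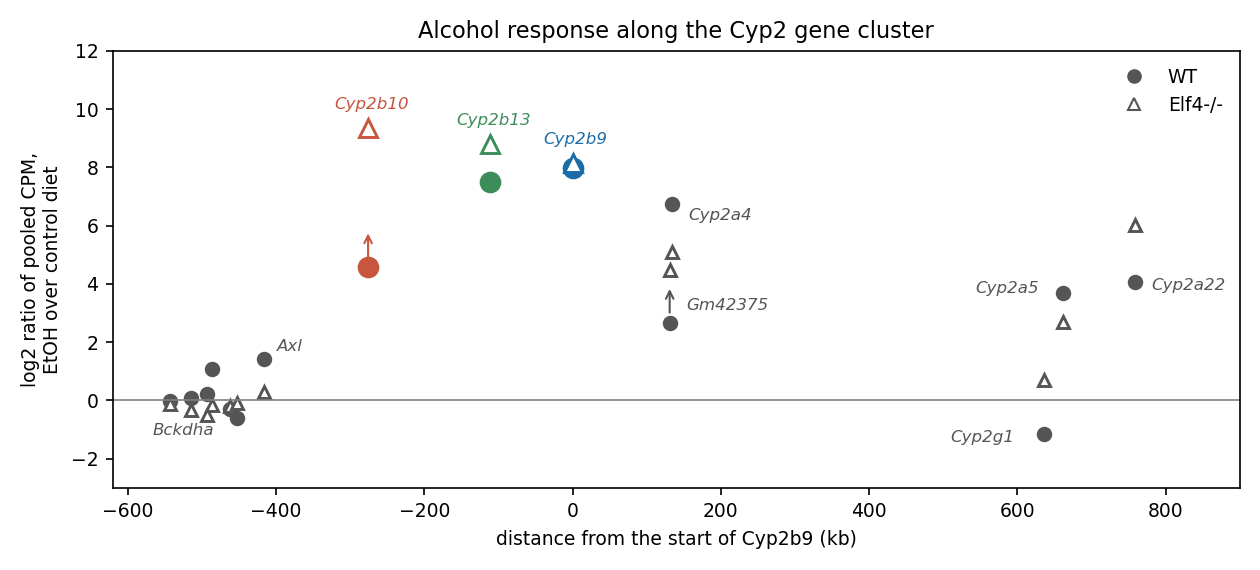
log2 ratio of EtOH over control diet, from counts pooled within each group, against the distance in kb from the start of Cyp2b9, for the 12 tested neighbours (grey) and the 3 Cyp2b genes (coloured), with WT as filled circles and Elf4-/- as open triangles. Arrows mark lower bounds where WT-Control had 0 counts. The Cyp2b genes were chosen for an alcohol rise, so their place above the neighbours in Elf4-/- is description only. For Cyp2b10 it rests on 1 library, since the pooled ratio of 654 in Elf4-/- is 9.46 without Elf4-/- EtOH replicate 1. The neighbours left of Cyp2b10 lie no higher than Axl in WT, at 1.42.

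Between the genotypes under alcohol, edgeR called 0 of the 87 tested genes of the 5 lists, with 24 at an unadjusted p under 0.05, against 20 called and 1470 at that unadjusted p among all 13993. Without Elf4-/- EtOH replicate 2 it called 18 of them and 350 of all genes, and DESeq2 called 6 of them and 180 of all genes.

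Genes whose levels ran most closely with the members over the 8 libraries were named by Pearson's r of log2 CPM among 9395 genes averaging 50 counts or more, as a description, since any gene that follows the diet scores high. For Cyp2b9 these were Srr (serine racemase, r = 0.992), the proteasome gene Psmd14 (0.990), Spryd7 (0.987), the chaperonin gene Cct6a (0.986) and Idh2 (mitochondrial isocitrate dehydrogenase, 0.982). For Cyp2b13 they were the fatty acid transporter Cd36 (0.999), the mitochondrial carrier Ucp2 (0.993), Teddm2 (0.993), Psmd14 (0.985) and the P450 gene Cyp1a1 (0.985). For Cyp2b10 they were Pmpcb (0.990), Tmem120a (0.990), Col4a1 (0.986), Slc1a2 (0.985) and Hyal1 (0.981). Between the members r was 0.979 for Cyp2b9 and Cyp2b13, 0.868 for Cyp2b9 and Cyp2b10, and 0.910 for Cyp2b13 and Cyp2b10. Cd36 shows the shape shared with Cyp2b13, with 32.7 and 69.0 CPM in WT-EtOH and 85.8 and 38.7 CPM in Elf4-/- EtOH against 4.60 to 6.53 CPM in the control libraries.

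Markers of other cells were followed because whole liver was sequenced, where fewer cells of a type and less RNA per cell cannot be told apart. The 4 Kupffer cell markers (Clec4f, Vsig4, Cd5l, Timd4) summed to 465 and 466 CPM in WT-EtOH and to 135 to 194 CPM in the other 6 libraries. The 4 endothelial markers summed to 166 to 198 CPM in WT-EtOH and 39.2 to 142 CPM elsewhere, and the 3 stellate markers to 40.1 to 62.3 CPM in the EtOH libraries and 9.94 to 42.1 CPM in the control libraries. The part of these shifts in the Cyp2b values was not tested. Of 6 intestinal epithelium markers 3 were in the table, summing to 41.3 to 119 CPM, most of it Fabp2. Of 6 keratinocyte markers 2 were in the table, summing to 3.35 to 6.90 CPM, and of 4 pancreatic acinar markers Cela1 alone was, at 2.75 to 9.10 CPM.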

How the data were processed

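Total RNA from liver was sequenced in 8 libraries. Per the study's methods and the submitters' processing notes, the authors mapped reads to mm10 with HISAT2, sorted them with SAMtools, counted them with HTSeq and tested them with DESeq2; versions, gene annotation, strand setting and handling of ambiguous reads are not given in the sources used here. The deposited table holds raw read counts per gene symbol, not normalized. Symbols were matched to GENCODE M21 (97.3% of 19267).

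Genes with low counts were removed by filterByExpr, leaving 13993, among them all 3 Cyp2b genes with a row. All 8 libraries entered 1 edgeR 4.0.16 model (R 4.3.3) of 4 groups without covariate (common biological coefficient of variation 22.7%), tested by quasi-likelihood with Benjamini-Hochberg adjustment over all genes and a threshold of 0.05. Pooled ratios are summed counts over summed TMM-scaled library sizes, with 95% exact intervals conditional on the total; a group at 0 was set to 3 counts per library. Each SE of an edgeR log2 fold change is its absolute value divided by the square root of the F statistic of its test. It is therefore approximate and not a standard error given by the fit. The edgeR step was tested on simulated data.

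Members, lists and tests were chosen with earlier results of these data known, and the motifs after the windows were read. Named are all members, regulators, up to 4 called genes per other list with the largest change in WT and a mean of at least 50 counts, Cyp2a4, Cyp2a5, Cyp2c29, Cyp3a11, Cyp2e1, Elf4, and the 5 genes most alike each member. Alternatives were DESeq2 1.42.0, median-of-ratios factors, library totals, no filter, only the 4 libraries of a contrast, a replicate block and each library left out. Of the listed genes, 1 entered the counts and medians but is not reported here by itself.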

Additional observations from a re-analysis of the deposited data

How the results depend on the processing

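Of 273 recomputed values 204 kept their direction and their side of the threshold, or moved little. For genes called over all genes, genotype under EtOH gave 20, and 50 without the filter, 0 with only the 4 libraries, 180 with DESeq2 and 0 to 350 with a library left out. Genotype under control diet gave 2, and 5 with library totals, 14 without the filter, 25 with only the 4 libraries, 79 with DESeq2 and 0 to 48 with a library left out. Diet in WT gave 3025, and 621 to 4003 with a library left out. Diet in Elf4-/- gave 404, and 43 with only the 4 libraries, 811 with DESeq2 and 4 to 1665 with a library left out. The interaction gave 0, and 7 without the filter, 111 with DESeq2 and 0 to 112 with a library left out. With library totals, the middle log2 fold change over all genes moved to 0.44 for diet in WT, -0.02 for diet in Elf4-/-, -0.23 and 0.24 for genotype under EtOH and control diet, and -0.47 for the interaction.

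Listed genes called numbered 47 for diet in WT (22 to 58 with a library left out), 32 for diet in Elf4-/- (3 to 54, and 9 with only the 4 libraries) and 0 for genotype under EtOH (0 to 18, 1 without the filter and 6 with DESeq2). Of the Cyp2b genes, 0 to 1 were called for genotype under EtOH with a library left out, where log2 fold changes ran from -0.28 to 0.83 for Cyp2b9, -2.93 to 4.29 for Cyp2b10 and -0.76 to 2.23 for Cyp2b13. For Cyp2b9 they ran from -1.02 to 0.52 in genotype under control diet, from -0.33 to 1.35 in the interaction (-0.21 with library totals) and from 7.60 to 9.27 for diet in Elf4-/-. Pooled diet ratios ran from 9.46 to 1428 for Cyp2b10 in Elf4-/-, and from 56.7 to 272 in WT and 153 to 802 in Elf4-/- for Cyp2b13. Fewer libraries left less to estimate the spread from, and for the other changes the cause was not tested.

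The replicate numbers did not pair the libraries: deviations of same-numbered libraries correlated between -0.134 and 0.114 over 6 pairs of groups. With a replicate block, genotype under EtOH gave 10 calls and diet in Elf4-/- 240, and Cyp2b10 read 1.51 for genotype under EtOH.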
